A study of Mus musculus with 30 samples.

Results

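Thyroid tumours that lost Smarcb1 were compared with thyroid tumours that lost Arid1a, both on the Braf(V600E) background and both under vehicle. The members are 6 of the 28 RNA-seq libraries analysed here, defined by genotype and treatment label. Of these, 3 are from Braf(V600E) with Smarcb1 knockout and 3 from Braf(V600E) with Arid1a knockout. The members and the gene lists below were chosen with earlier results of these data known, so the list counts are descriptions and no tests of the lists. All genes with enough counts were described, 19016 of 33924 in the count table. Mice of both genotypes carried the activating Braf mutation, so it is shared and not compared. They received vehicle for 8 days and were killed about 2 h after the last dose. The same genotypes were also treated with the MEK inhibitor CH5126766, called CKI in the labels, on the same schedule, in 6 further libraries. These gave the same contrast a second time, in libraries the vehicle contrast does not use. The 3 Braf(V600E) vehicle libraries without either knockout (numbered 2, 4 and 5) are given as levels only. Below, "Smarcb1 libraries" and "Arid1a libraries" are the knockout libraries with Braf(V600E), under vehicle unless CKI is named.

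SWI/SNF complexes use ATP to move nucleosomes and open enhancers and promoters. Smarcb1 encodes a core subunit shared by the canonical BAF and PBAF forms, whereas Arid1a encodes the large subunit that defines BAF. Loss of SMARCB1 is the defining lesion of rhabdoid tumours, while ARID1A is among the SWI/SNF genes most often mutated in carcinomas. In the thyroid, dedifferentiated cancers carry mutations of several SWI/SNF genes, and the series asks how such losses bear on tumour progression and on treatment meant to restore thyroid differentiation.

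Preparation has to be read beside every result. In one text of the labels WT, Arid2 and Smarcb1 glands were flash frozen whole, and in another glands were dissociated and YFP-positive cells sorted. Both texts stand on all samples, and the first does not name Arid1a. Loss of Smarcb1 against Arid1a and frozen gland against sorted cells therefore cannot be told apart here. The labels name neither the driver of recombination nor the mice's age, and no label states that each library is a mouse of its own, so the p-values reflect the scatter among these libraries alone. In bulk RNA, fewer cells of a type and less RNA per cell cannot be told apart.

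The 6 libraries held 23879271 to 34400066 counts, with 6.63% to 12% of counts in the 10 most abundant genes of a library. Levels are CPM, a gene's counts relative to its library's TMM-scaled total. Log2 fold changes are Smarcb1 minus Arid1a, so a positive value means higher with Smarcb1 loss, with SE for standard error. Each p is from edgeR's quasi-likelihood test, adjusted by Benjamini-Hochberg over all genes tested (threshold 0.05). The median absolute log2 difference between 2 libraries was 0.413 to 0.459 within the Arid1a group, 0.521 to 0.74 within the Smarcb1 group and 0.771 to 0.927 between the groups. The Smarcb1 group thus varied more within itself. Genes on the Y chromosome summed to between 0.0654 and 306 CPM in the Smarcb1 libraries, with library 2 near 0, and to at most 12.5 CPM in the Arid1a libraries, so the groups were unequal in them.

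The knocked-out genes came first. Smarcb1 was at 2.28, 10.03 and 17.9 CPM in Smarcb1 libraries 1, 2 and 3 and at 107, 177 and 92.6 CPM in the Arid1a libraries (log2 fold change -3.64, SE 0.63, adjusted p = 1.71e-04). The groups did not overlap, and library 1 had the least left. Arid1a measured 31.3, 26.8 and 19.1 CPM in the Smarcb1 libraries against 15.9, 15.2 and 11.98 CPM in the Arid1a libraries. These did not overlap either, but the difference did not pass (log2 fold change 0.84, SE 0.42, adjusted p = 0.14998). Because reads from exons that remain are counted with the rest of the gene, the Arid1a level does not check that label. Braf was at 16.1 to 18.2 against 18.4 to 27.5 CPM and did not pass (-0.45, adjusted p = 0.309).

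Under vehicle 5154 genes passed, 27.1% of those tested. They split evenly, with 2562 higher (13.5%) and 2592 lower (13.6%) in the Smarcb1 libraries. Every list count under vehicle below is to be read against these shares. Changes were often large: 1472 genes were at least 4-fold higher and 1429 at least 4-fold lower. Of the genes that passed, 4800 had groups that did not overlap, against 40.5% of all genes tested. Groups that stand apart are thus usual for a gene that passed. The median log2 fold change of all genes was 0.07. Among the genes that passed, 152 of those higher had 0 counts in all Arid1a libraries, and 42 of those lower had 0 counts in all Smarcb1 libraries.

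**Figure D1:**
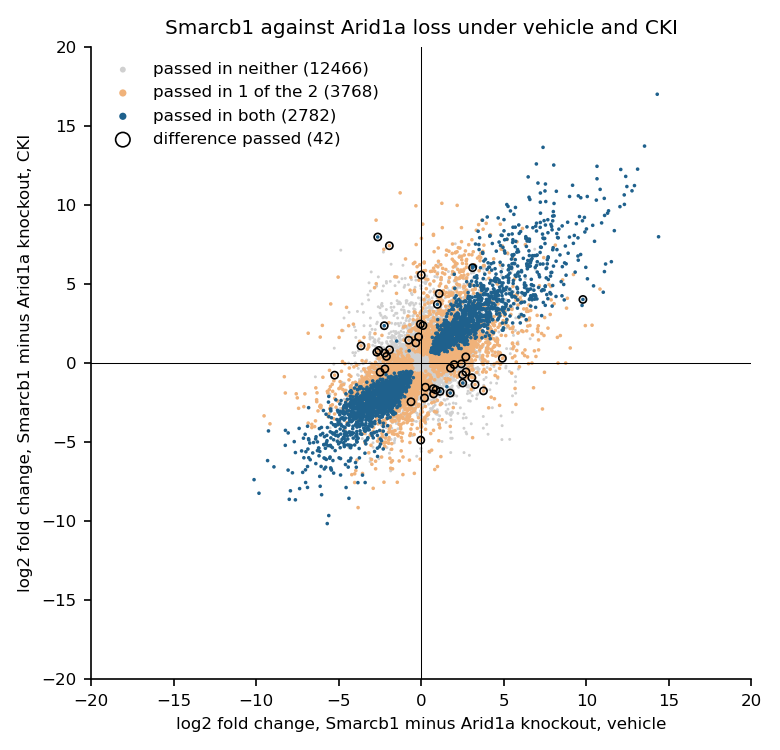
Log2 fold change of each of the 19016 genes tested, Smarcb1 minus Arid1a knockout, under vehicle (x axis) and under CKI (y axis), from separate libraries. Colour marks genes that passed the test in both (2782), in 1 (3768) or in neither (12466), and circles mark the 42 genes whose difference between vehicle and CKI passed; most genes that passed in both lie in the upper right or lower left.

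The 12 largest rises were genes with 0 counts or 1 count in the Arid1a libraries. Ecel1, a peptidase gene of neurons, stood at 51.6, 88.3 and 124 CPM in the Smarcb1 libraries and had 0 counts in the Arid1a libraries, at least 2538-fold higher when that group is set to a floor of 3 counts in all. Fam5c, a gene of the developing nervous system, was at 63.4, 60.004 and 31.2 CPM against 0, at least 1564-fold higher. All 3 Smarcb1 libraries were high for both genes. Tbx20, a T-box transcription factor of heart development, was at 43.2, 52.7 and 5.24 CPM (at least 1041-fold higher). Dner, a neuronal ligand of Notch, was at 14.8, 29.5 and 46.7 CPM (at least 868-fold), and Dlx1, a homeobox gene of forebrain interneurons, at 31.3, 14.1 and 11.7 CPM (at least 584-fold).

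The hormone axis gene Crh, which encodes corticotropin-releasing hormone, and Crhbp, which encodes its binding protein, were both among these 12. Crhbp was at 94.8, 8.04 and 12.5 CPM against 0 (at least 1227-fold higher), so library 1 stood well above the others. Crh was at 4.2999, 1.27 and 37.8 CPM against 0 (at least 394-fold), carried mostly by library 3, and DESeq2 gave it an adjusted p of 0.156. Fgf15, a fibroblast growth factor (at least 763-fold), Fam19a1, a small secreted protein of the brain (at least 724-fold), Klhl1 (at least 672-fold) and Klra4, an NK cell receptor gene of a close-copy family (at least 554-fold), were also at 0 in the Arid1a libraries. Matn1, which encodes the cartilage protein matrilin, was at 331, 5.46 and 659 CPM with 1 count in the Arid1a libraries, a ratio of 28505 (95% counting interval 5116 to 1125930). Library 2 stood far below the other Smarcb1 libraries for this gene, and other cartilage markers are given below.

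The 12 largest falls came next. Fgg, the gamma chain of fibrinogen, was at 0.0593, 0.0327 and 0.147 CPM in the Smarcb1 libraries against 44.98, 72.9 and 105 CPM in the Arid1a libraries (log2 fold change -9.83, SE 1.68, adjusted p = 1.63e-04). Resp18, a secretory granule protein, was at 2.25, 0.915 and 5.096 CPM against 765, 1966 and 1278 CPM (-8.92, SE 1.31, adjusted p = 3.17e-05). Both genes were high in every Arid1a library and near 0 in every Smarcb1 library. In the Braf(V600E) vehicle libraries Fgg was at 0.968, 0 and 0 CPM and Resp18 at 91.4, 18.1 and 11.05 CPM.

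Grp, which encodes gastrin-releasing peptide, and Nmbr, a receptor of the same bombesin family, were both among the 12. Grp was at 0.178, 0 and 0.623 CPM against 83.6, 35.9 and 56.8 CPM (-7.80, SE 0.99, adjusted p = 7.32e-06). Nmbr was at 0.119, 0.131 and 0.147 CPM against 36.1, 26.5 and 17.8 CPM (-7.62, adjusted p = 1.07e-05). Fbp1, the fructose bisphosphatase of gluconeogenesis, was also lower (0, 1.57 and 4.58 against 414, 241 and 355 CPM, -7.37). Pnliprp1, a lipase-related gene, had 2 counts in the Smarcb1 libraries and 7.94 to 57.1 CPM in the Arid1a libraries, a ratio of 1450.0 (counting interval 401 to 11979). Ghrhr, the receptor for growth hormone-releasing hormone, had 2 counts against 7.64 to 8.51 CPM, a ratio of 364 (100.3 to 3008). Cst12, Ctxn3, Scube2 and Gpr128 were among the 12 as well, with log2 fold changes of -8.07, -8.00, -7.69 and -7.63.

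**Figure D2:**
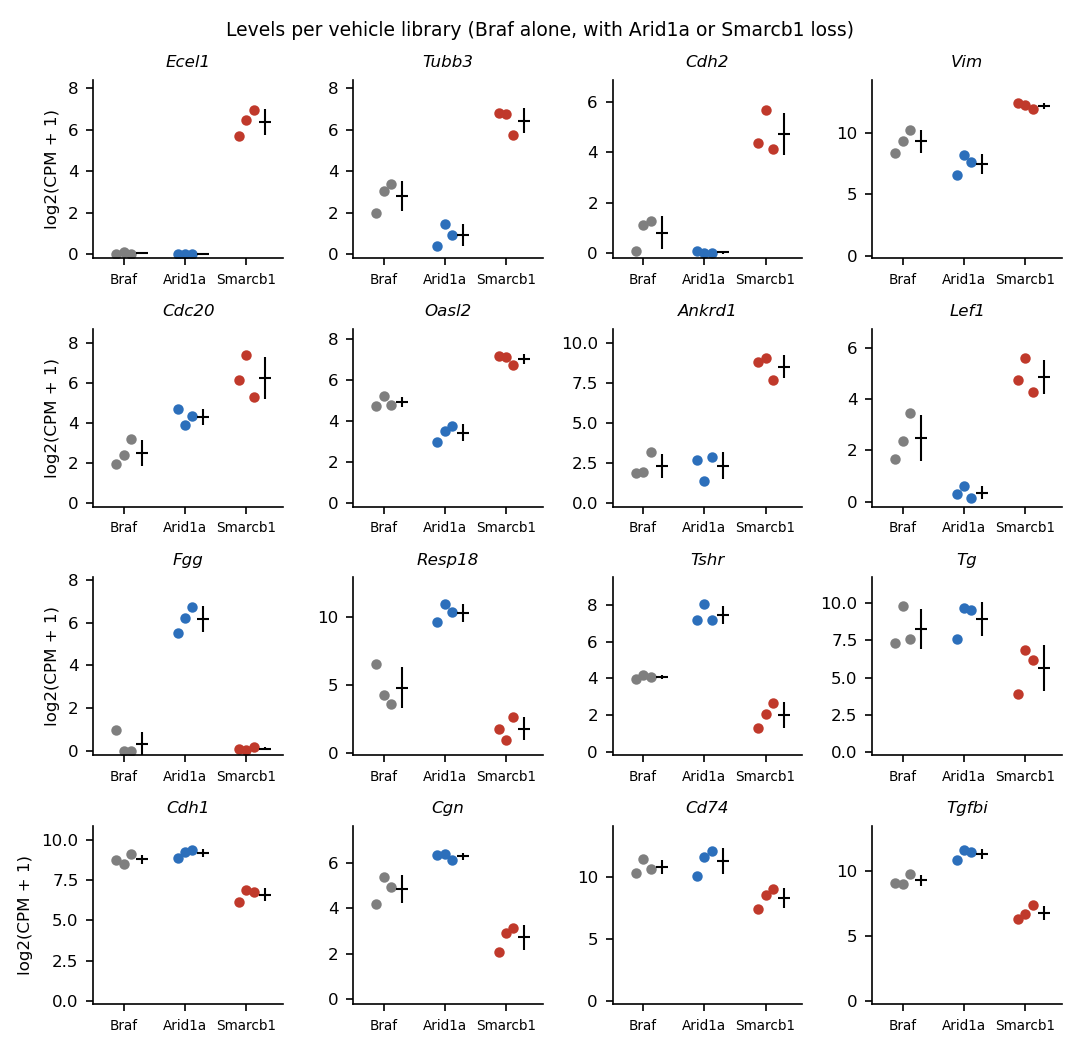
Level of 16 genes in each vehicle library, as log2(CPM + 1), for Braf(V600E) alone (grey), with Arid1a knockout (blue) and with Smarcb1 knockout (red); crosses with bars are the mean ± SD of 3 libraries. The Smarcb1 and Arid1a libraries do not overlap for any of these genes; Ecel1 is at 0 in all Arid1a libraries and Tshr runs from 1.45 to 5.35 CPM in the Smarcb1 libraries against 145 to 264 CPM.

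Neuronal genes as a group were far higher with Smarcb1 loss. Of 17 tested, 12 were higher and none lower, against 13.5% higher among all genes, with a median log2 fold change of 5.09. Tubb3, the neuronal beta-tubulin, was at 109, 108 and 52.5 CPM in the Smarcb1 libraries against 0.317, 1.75 and 0.879 CPM in the Arid1a libraries (log2 fold change 6.53, SE 0.86, adjusted p = 1.07e-05). Stmn2, a regulator of axonal microtubules, was at 69.3, 51.9 and 37.3 against 0.381, 1.06 and 0.637 CPM (6.26). Nefl, the light neurofilament chain, was at 47.7, 26.8 and 33.5 against 0, 0.204 and 0.576 CPM (7.07). For these 3 genes every Smarcb1 library stood far above every Arid1a library.

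Uchl1, a ubiquitin hydrolase abundant in neurons, was at 252, 159.8 and 119.8 against 2.63, 5.09 and 4.396 CPM (5.45, adjusted p = 4.22e-07). Synaptic vesicle genes took part, with Snap25 at 3.72 and Syt1 at 7.03, and so did the growth cone gene Gap43 (7.57) and the adhesion gene Ncam1 (3.63), all as log2 fold changes. Members that did not pass included the progenitor factor Sox2 (at most 1.04 CPM), the microtubule protein gene Dcx (-1.93), and the RNA-binding genes Elavl4 (0.12) and Rbfox3 (1.30). In Braf(V600E) alone Uchl1 was at 31.7, 17.2 and 29.1 CPM, between both knockouts, and Stmn2 at 19.3, 18.4 and 47.7 CPM, which overlapped the Smarcb1 libraries. Nefl there was at 0.0509 CPM or less.

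Nerve and glial markers, from cells that could also bring neuronal RNA, split: of 8, 2 were higher and 3 lower, with a median of 0.10. Gfap (0.326, 0.327 and 0.32999 against 2.601, 2.24 and 3.699 CPM, -3.10) and the myelin gene Mbp (2.31, 19.4 and 12.8 against 51.6, 52.9 and 63.6 CPM, -2.29) were lower in the Smarcb1 libraries. Pmp22 was lower too, a call lost without Arid1a library 1 or 3 or Smarcb1 library 1. Ngfr was 1 of the 2 that were higher, a call lost without Smarcb1 library 2. The summed level of the 8 markers ran from 56.1 to 98.2 CPM in the Smarcb1 libraries and from 159 to 178 CPM in the Arid1a libraries. Sox10, a defining factor of Schwann cells, was at most 0.65998 CPM in the Smarcb1 libraries and 0 in the Arid1a libraries. Their part in the neuronal result was not tested. The higher count was 1 without Arid1a library 2 or 3 or Smarcb1 library 2 or 3.

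Some Hox and oncofetal genes were higher as well. Hox genes give cells their position along the body axis, and of 28 tested 9 were higher and none lower (median 1.63). Hoxc8 was at 5.58, 21.1 and 7.003 CPM with 1 count in the Arid1a libraries and 0 counts in Braf(V600E) alone, a ratio of 996 (counting interval 178 to 39368). Hoxc9, also with 1 count in the Arid1a libraries, followed at a ratio of 72.9. Summed Hox level was 129.98 to 192 CPM against 47.3 to 90.5 CPM, and the count higher fell to 5 without Arid1a library 2 or 3 and to 4 once the leukocyte level was a covariate.

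Among 10 oncofetal genes, expressed in the embryo and again in tumours, 4 were higher and none lower (median 1.30), against 13.5% higher among all genes. Their mean log2(CPM + 1) was 3.85 in the Smarcb1 libraries, 2.81 in the Arid1a libraries and 3.66 in Braf(V600E) alone, near the Smarcb1 libraries. Summed CPM overlapped, at 370 to 588 in the Smarcb1 and 143 to 1706 in the Arid1a libraries. Igf2, a fetal growth factor, was at 7.15, 60.1 and 3.63 against 0.381, 0.407 and 0.0606 CPM (6.39, SE 1.27, adjusted p = 6.61e-04). Igf2bp3, an RNA-binding protein that acts on Igf2 mRNA, was at 22.2, 11.1 and 10.3 against 1.14, 0.733 and 1.46 CPM (3.70), and the imprinted RNA H19, the neighbour of Igf2, was 4.60 higher on the log2 scale. Hmga2 was higher too (1.28), a call lost without Arid1a library 1 or Smarcb1 library 1. Hedgehog pathway genes were higher in 4 of 8: the effector Gli1 (3.59, 5.85 and 1.43 CPM with 1 count in the Arid1a libraries, ratio 329.6), the transducer Smo (16.8, 27.1 and 20.1 against 6.88, 6.11 and 6.37 CPM, 1.72), Gli3 (3.14) and Gli2 (4.43, lost without Smarcb1 library 2). Their target and receptor Ptch1 did not pass (0.21).

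Epithelial genes were lower. Of 18 epithelial and junction genes 14 were lower and 2 higher, against 13.6% lower among all genes, with a median of -3.01. Cdh1, which encodes E-cadherin, was at 68.8, 119 and 107 CPM in the Smarcb1 libraries against 477, 616 and 674 CPM in the Arid1a libraries (-2.59, SE 0.31, adjusted p = 3.96e-06). Cgn, the tight junction protein cingulin, was at 3.26, 6.602 and 7.77 against 80.6, 82.7 and 67.7 CPM (-3.71). Esrp1, which directs epithelial splicing, was at 5.13, 7.09 and 9.42 against 62.7, 63.3 and 103 CPM (-3.40), and the epithelial transcription factor Grhl2 was 3.15 lower on the log2 scale. The groups stood apart for all 4 genes. In Braf(V600E) alone Cdh1 was at 368 to 548 CPM and Cgn at 16.96 to 40.98 CPM.

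Cldn1, a claudin of tight junctions, went the other way at 328, 179 and 159 against 27.2, 20.9 and 49.9 CPM (2.77, adjusted p = 7.07e-04). Pkp2, a desmosome gene, was also higher (1.54), a call lost without Arid1a library 2 or 3 or Smarcb1 library 2 or 3. Epcam did not pass and differed widely between the Smarcb1 libraries, at 2.05, 35.002 and 196 CPM. Smarcb1 library 1 was lowest for Epcam, Cdh1, Grhl2 and Cgn. It was also the lowest of its group in mean keratin (2.18), surfactant (4.39) and leukocyte (3.43) level, and a link to its Smarcb1 level was not tested. Of 15 keratins 3 were lower and none higher, against 13.6% lower among all genes. These were Krt18 (206, 349 and 839 against 4095, 4733 and 4386 CPM, -3.25), its partner Krt8 (-2.10) and Krt80 (-1.86, lost without Arid1a library 3). These simple epithelial keratins were at 1116 to 10555 CPM in Braf(V600E) alone for Krt18 and Krt8.

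Genes of mesenchymal transition were higher in 7 of 14 and lower in none (median 1.42). Their mean log2(CPM + 1) was 5.15 in the Smarcb1 and 3.80 in the Arid1a libraries. Braf(V600E) alone had a mean of 5.43 and ran from 4.298 to 6.12, around the Smarcb1 libraries, so the Arid1a group was the low one. Vim, which encodes the intermediate filament vimentin, was at 5542, 4889 and 3902 CPM against 95.6, 297 and 195 CPM (4.61, SE 0.60, adjusted p = 9.29e-06). Cdh2, which encodes N-cadherin, was at 19.5, 50.04 and 16.4 CPM with 2 counts in the Arid1a libraries, a ratio of 1282 (counting interval 355 to 10592). Zeb1, a repressor of E-cadherin, was at 64.5, 58.6 and 93.4 against 4.35, 5.54 and 5.55 CPM (3.81). Each of these separated the groups fully. Twist1 (5.46), Zeb2 (2.53), Snai1 (3.16) and Prrx1 (2.31, lost without Arid1a library 1 or 3 or Smarcb1 library 1) were higher as well. Snai2 and Fn1, fibronectin, were both at -1.42 and did not pass.

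**Figure D3:**
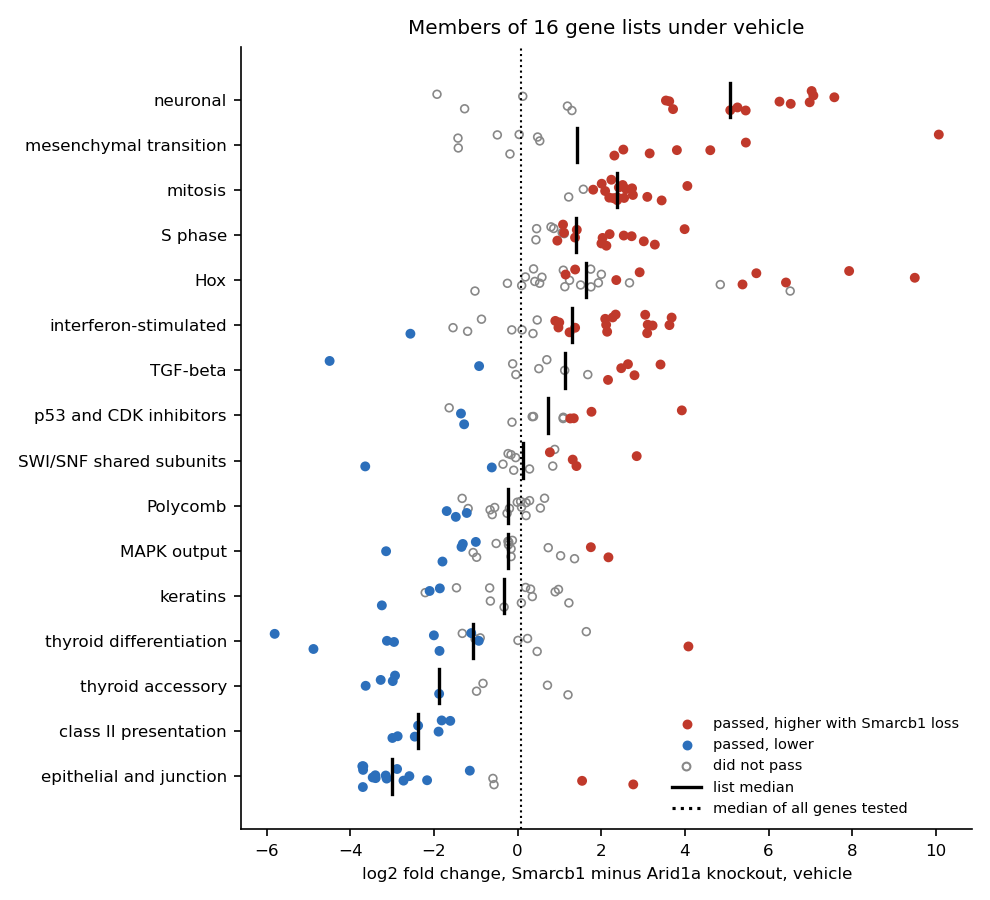
Log2 fold change under vehicle (x axis, Smarcb1 minus Arid1a knockout) of the tested members of 16 gene lists, 1 point per gene; filled points passed the test, open points did not, the bar is the list's median and the dotted line the median of all genes (0.07). Neuronal genes have the highest median (5.09) and epithelial and junction genes the lowest (-3.01).

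Markers of fibroblasts, which also express vimentin and Zeb genes, are given beside this. Of 10, 2 were higher (median 1.41), and their summed level was 1293 to 2785 CPM in the Smarcb1 libraries against 327 to 808 CPM in the Arid1a libraries, with no marker at 0. In Braf(V600E) alone the sum was 903 to 21962 CPM. Without Arid1a library 1 or 3 none was higher, without Arid1a library 2 or Smarcb1 library 1 there was 1, and 7 were higher once the leukocyte level was a covariate. Their part in the mesenchymal result was not tested. Of 10 endothelial markers 2 were higher and 1 lower: Pecam1 at 112, 43.9 and 29.1 against 4.31, 6.31 and 10.9 CPM (3.10), Flt1 (2.36) and Esam (-1.87, lost without any 1 of 5 libraries: each Arid1a library and Smarcb1 libraries 1 and 2). The other 7 markers, the endothelial cadherin gene Cdh5 among them, did not pass.

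Proliferation genes were higher. Of 20 mitosis genes 17 were higher and none lower (median 2.39), and of 20 S phase genes 14 were higher and none lower (median 1.40). Ccna2, cyclin A2, was at 17.97, 59.2 and 38.8 CPM in the Smarcb1 libraries against 3.27, 0.733 and 2.91 CPM in the Arid1a libraries (4.06, SE 0.78, adjusted p = 4.85e-04). Cdc20, the activator of the anaphase-promoting complex, was at 69.5, 168 and 38.2 against 25.1, 13.9 and 19.2 CPM (2.24), and Prc1, a midzone microtubule bundler, at 326, 248 and 88.9 against 27.4, 13.3 and 36.4 CPM (3.10). Cdk1, the mitotic kinase, was at 258, 164 and 106 against 30.9, 19.7 and 50.03 CPM (2.39). Smarcb1 library 3 was the lowest of its group for 3 of these 4 genes and its mean mitosis level lay nearest the Arid1a libraries, as the plot of list levels shows. Bub1b, Aurkb and Plk1 did not pass, and for these library 3 lay within or under the range of the Arid1a libraries.

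In S phase, Cdc45, a helicase subunit at replication forks, was at 94.2, 63.8 and 45.8 against 10.9, 9.24 and 10.6 CPM (2.73, adjusted p = 5.97e-05). E2f1, a transcription factor of the G1/S switch, was at 43.5, 26.5 and 14.3 against 2.25, 4.28 and 3.88 CPM (3.02). Cdt1, a licensing factor, and Ccne2, cyclin E2, were higher by 2.54 and 2.12 on the log2 scale. The broad replication genes Pcna (0.46) and Mcm7 (0.44) did not pass. These counts move with single libraries. The mitosis count was 7 without Arid1a library 1, 5 without Arid1a library 2, 7 without Smarcb1 library 1, 8 with the leukocyte level as a covariate and 6 with the stress level; the S phase count was 8 without any 1 of Arid1a libraries 1 and 2 and Smarcb1 libraries 1 and 2, and 9 with the stress level.

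Promoters of the mitosis list are shown because its members moved together and because cell cycle promoters are known to carry CCAAT boxes and the cell cycle homology region TTTGAA. Sequences are from RefSeq on GRCm38.p6, another build than the mm9 of the counts. Each runs from 120 bases before to 20 bases after the start, with CCAAT and TTTGAA matches on either strand in capitals.
Cdc20 (chr4:118437324-118437463, minus strand): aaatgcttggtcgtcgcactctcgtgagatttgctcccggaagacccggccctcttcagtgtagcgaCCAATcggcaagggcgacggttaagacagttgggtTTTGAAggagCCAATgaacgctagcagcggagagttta
Prc1 (chr7:80294331-80294470, plus strand): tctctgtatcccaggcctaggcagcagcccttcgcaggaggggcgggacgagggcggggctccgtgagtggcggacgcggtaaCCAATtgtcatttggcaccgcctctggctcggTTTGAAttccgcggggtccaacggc
Both were chosen because they hold the 2 motifs; TTTGAA runs across the start in Prc1. Windows of 300 bases, 250 before to 50 after the start, were found for 16 of the 20 mitosis genes: 14 (87.5%) held CCAAT and 11 (68.8%) TTTGAA, on either strand, against 37.4% and 17.9% of 32851 promoter windows. Of 16 S phase genes with a window 6 (37.5%) held the E2F-type word GGCGGGA, against 11.3% of all windows. A match is a description of letters in the window, and no test of a factor.

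Growth arrest genes were mixed. Of 12 p53 targets and CDK inhibitors 4 were higher and 2 lower (median 0.74), against 13.5% higher and 13.6% lower among all genes. Ccng1, a p53 target, was at 1082, 705 and 624 against 227, 147 and 334 CPM (1.77, adjusted p = 4.52e-04), and Bax, a pro-apoptotic target, at 294, 246 and 291 against 122, 99.8 and 105 CPM (1.34). Cdkn2a, which encodes the p16 and p19Arf inhibitors, was at 5.22, 3.497 and 3.19 against 0.412, 0.0407 and 0.303 CPM (3.93). Both groups were well apart for these 3. Cdkn1b, the p27 inhibitor, was lower (15.7, 14.4 and 12.03 against 45.9, 33.3 and 28.4 CPM, -1.35), and so was Sesn2 (-1.28, lost without Arid1a library 2, where 1 gene of the list was lower, or Smarcb1 library 3). Cdkn1a, the p21 inhibitor, was at 576 to 762 against 445 to 569 CPM and did not pass (0.38).

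Many thyroid genes were lower with Smarcb1 loss. Of 16 thyroid differentiation genes 8 were lower and 1 higher (median -1.06), and of 9 accessory genes 5 were lower and none higher (median -1.88). Tshr, the thyrotropin receptor, was at 1.45, 3.14 and 5.35 CPM in the Smarcb1 libraries against 148, 264 and 145 CPM in the Arid1a libraries (-5.81, SE 0.50, adjusted p = 7.58e-08). Tg, thyroglobulin, was at 14.2, 114 and 71.4 against 193, 797 and 749.9 CPM (-3.12). No Smarcb1 library reached an Arid1a library for either gene. Braf(V600E) alone lay between for Tshr (14.5 to 17.4 CPM).

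The lineage factors were less uniform. Foxe1 was lower (-2.95) at levels of at most 2.18 CPM, Pax8 was lower (102, 78.01 and 53.8 against 109, 273 and 122 CPM, -1.11; lost without Arid1a library 2 or Smarcb1 library 2 or 3) and Nkx2-1 did not pass (2.55 to 13.7 against 12.9 to 15.1 CPM). Slc5a5, the sodium iodide symporter, was the gene that was higher, at 36.5, 10.7 and 30.6 against 1.08, 2.44 and 1.09 CPM (4.08, SE 1.14, adjusted p = 0.0101, or 0.057 once the leukocyte level was a covariate). Accessory genes that were lower included the iodotyrosine deiodinase Iyd (-2.93) and Cdh16 (-2.98), a cadherin of thyroid and kidney. The counts lower were 5 and 3 without Smarcb1 library 1 or 2; they were 5 without Arid1a library 2 for differentiation and 3 without Arid1a library 1 for accessory genes, and 5 and 3 with the stress level.

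Surfactant and lung-type secretory genes, known targets of the thyroid and lung factor Nkx2-1, were lower in part, with 3 of 10 lower and none higher (median -1.68). Of these 3 calls, that of Scgb3a2 was lost without Arid1a library 1 or any 1 of the Smarcb1 libraries. It was also lost with the leukocyte, stress or Y-linked level as a covariate. Sftpb, surfactant protein B, was at 18.9, 107 and 147 against 1965, 2599 and 2887 CPM (-4.77, adjusted p = 1.31e-04), and the aspartic protease Napsa at 34.04, 148 and 422 against 4001, 4942 and 3828 CPM (-4.40). In Braf(V600E) alone they were at 2196 to 3751 and 2322 to 4291 CPM, near the Arid1a libraries. Sftpa1, the most abundant member there (27463 to 68014 CPM), was at 400.2, 4102 and 5856 against 11464, 9716 and 5175 CPM, overlapped and did not pass (-1.35).

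Interferon-stimulated genes were higher in 16 of 24 and lower in 1 (median 1.31). Oasl2, an antiviral gene of the oligoadenylate synthetase family, was at 139.8, 137 and 104 CPM against 6.79, 10.4 and 12.4 CPM (3.68, SE 0.34, adjusted p = 1.67e-07). Bst2, the tether that holds back enveloped viruses, was at 207, 127 and 101 against 17.6, 10.1 and 18.6 CPM (3.23), and Gbp2, an interferon-induced GTPase, at 219, 183 and 101 against 8.91, 17.6 and 14.1 CPM (3.63). Rtp4 (2.35), Ifit1 (3.11) and the ubiquitin-like Isg15 (2.27) followed. All 6 kept the groups apart, as did 4800 of the 5154 genes that passed. Oas, Ifit and Gbp genes have close copies that share reads. Mx1 was the gene that was lower (1.097, 0.784 and 5.65 against 15.1, 5.66 and 23.6 CPM, -2.56), a call lost without Arid1a library 3 or Smarcb1 library 1 or 2.

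The promoters of Gbp2 and Ifit1 are printed on the same terms as above, because interferon-stimulated response elements hold GAAA, then 2 bases of any kind, then GAAA again. Capitals mark matches, which read TTTC, 2 bases and TTTC where they lie on the other strand.
Gbp2 (chr3:142620543-142620682, plus strand): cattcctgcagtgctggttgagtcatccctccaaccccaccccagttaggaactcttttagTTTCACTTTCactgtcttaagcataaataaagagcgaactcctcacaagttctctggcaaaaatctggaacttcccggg
Ifit1 (chr19:34640769-34640908, plus strand): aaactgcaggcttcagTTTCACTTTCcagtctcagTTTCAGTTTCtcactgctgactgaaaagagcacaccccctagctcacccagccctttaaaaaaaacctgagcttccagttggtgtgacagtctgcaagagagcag
Gbp2 had 1 match and Ifit1 had 2 in the printed stretch. Both were chosen because they hold the motif there, and in Bst2 neither of the 2 matches lay wholly inside the same stretch. Of all promoter windows 3.44% held 1 or more. A count over the interferon list is not given here, because only 18 of its 24 genes (75%) had a window. In the mitosis and S phase lists the share was 80%.

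Of the antigen presentation genes, all 7 of class II were lower (median -2.38). Cd74, the invariant chain, was at 172, 361 and 511 against 1049, 3069 and 4186 CPM (-2.99, SE 0.48, adjusted p = 7.25e-05), and H2-Ab1, a class II beta chain, at 79.4, 191 and 309.9 against 604, 1600.5 and 2029 CPM (-2.87). The peptide loading genes H2-DMa (-1.89) and H2-DMb1 (-1.81) and the class II transactivator Ciita (-2.46) were lower too. Of 9 class I genes 1 was lower: H2-D1, at 776, 1131 and 955 against 3764, 3796 and 2052 CPM (-1.75), while B2m did not pass (0.67). Class II genes are expressed by macrophages and other leukocytes. Leukocyte markers had a median of -1.36, with a summed level of 98.7 to 296 CPM in the Smarcb1 libraries against 222 to 619 CPM in the Arid1a libraries, and no marker was at 0. Ptprc, the pan-leukocyte gene CD45, was at 6.76, 21.4 and 33.4 against 25.9, 64.9 and 65.5 CPM. Once the leukocyte level was a covariate, 5 of the 7 class II genes were lower (median -1.36).

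Of 7 leukocyte markers 1 was lower (Laptm5, -1.98). There was none without Arid1a library 2 or 3 or Smarcb1 library 1, there were 2 without Arid1a library 1, and there were 4 without Smarcb1 library 3. Of 10 macrophage markers Cd68 was lower (18.0, 19.2 and 35.97 against 57.8, 142 and 86.5 CPM, -1.97; list median -1.37), with 3 lower without Arid1a library 1 or Smarcb1 library 3. No T cell or neutrophil marker passed. Cartilage and airway markers, which tell of tissue beside the gland, had 1 higher (Matn1) and 2 lower of 10. Col9a1, a cartilage collagen, was lower (35.9, 77.8 and 91.8 against 403, 595 and 309.5 CPM, -2.67), opposite to Matn1, and their summed level was 166 to 1069.7 against 448 to 668 CPM. The lower count was 1 without Arid1a library 1 or 3 or Smarcb1 library 1 or 2.

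Dissociation stress genes, which rise when tissue is digested into cells, were lower in 6 of 15 and higher in none (median -0.76). The fall was not uniform: the stress genes Hspb1 and Jun leaned higher and did not pass. Hspb1 passed as higher with DESeq2 (2.06, adjusted p = 0.0347) and, in edgeR's test, without Smarcb1 library 1 (2.48, adjusted p = 0.0472). Nr4a1 was at 145, 203 and 173 against 721, 1008 and 866 CPM (-2.32, adjusted p = 5.30e-04), Atf3 at 452, 838 and 661 against 3009, 2926 and 3076 CPM (-2.21) and Fos at 3259, 2744 and 2184 against 9881, 14225 and 6157 CPM (-1.89). The summed level was 6850.2 to 9255 CPM in the Smarcb1 libraries and 15768 to 27296 CPM in the Arid1a libraries. Several of these are also immediate early genes of MAPK signalling, and the labels' texts on sorting concern the same split of libraries. With the stress level as a covariate 5374 genes passed, and with the leukocyte level 3945. Neuronal genes were then higher in 11 and 12 of 17, epithelial genes lower in 14 of 18 with either covariate, and interferon genes higher in 16 and 12 of 24. Under CKI 1 of the 15 stress genes was lower (median -0.30), against 11.3% lower among all genes there. It was 3 without Arid1a CKI library 2 and none without Arid1a CKI library 4 or 5 or Smarcb1 CKI library 1. Summed levels under CKI were 17505 to 20921 against 10930 to 40251 CPM. No stress gene passed the test of the difference between vehicle and CKI, so their contrasts were not shown to differ between treatments.

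**Figure D4:**
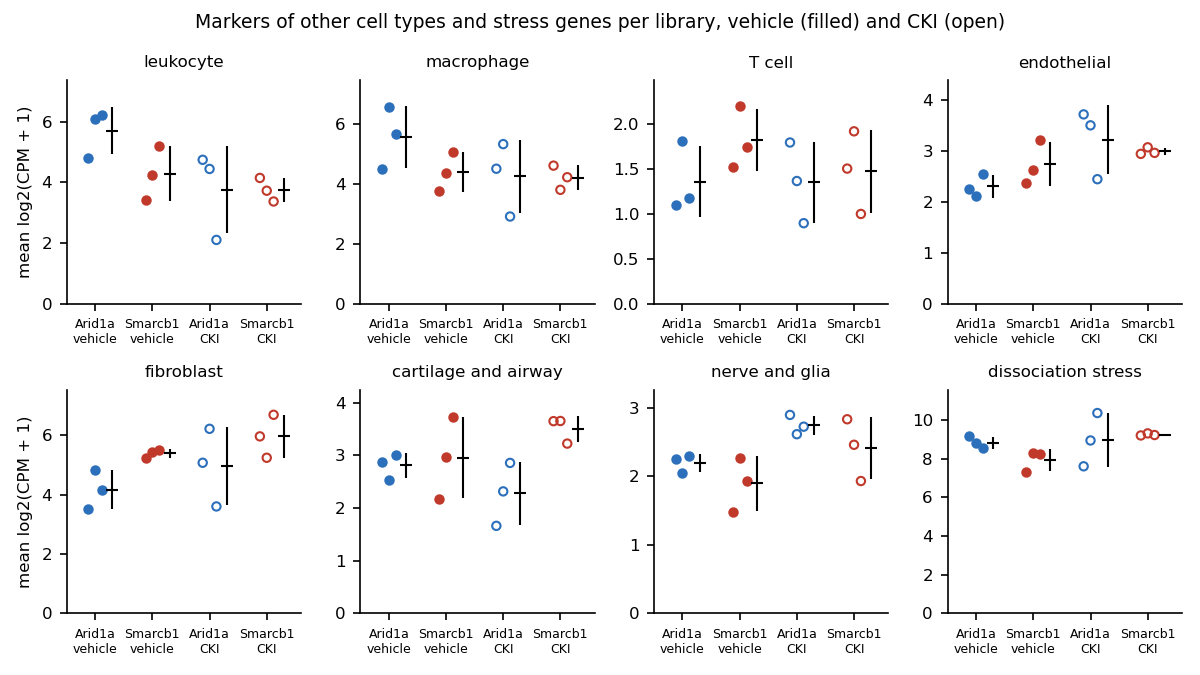
Mean log2(CPM + 1) of markers of 7 other cell types and of dissociation stress genes in each library of the 4 groups, vehicle filled and CKI open, Arid1a knockout blue and Smarcb1 knockout red; crosses with bars are the mean ± SD of 3 libraries. Under vehicle the leukocyte level was 4.296 ± 0.894 in the Smarcb1 and 5.72 ± 0.78 in the Arid1a libraries, and the stress level 7.93 ± 0.566 and 8.82 ± 0.308.

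Signalling outputs diverged gene by gene. Of 19 MAPK output genes 2 were higher and 5 lower (median -0.22), against 13.5% higher and 13.6% lower among all genes. The feedback inhibitors Spry4 (225, 184 and 113 against 47.6, 39.2 and 28.95 CPM, 2.17, adjusted p = 0.00104) and Spred2 (28.7, 67.1 and 31.7 against 14.5, 13.1 and 10.3 CPM, 1.75) were higher. Epha4, a receptor tyrosine kinase, was lower (1.48, 3.27 and 8.62 against 46.3, 39.2 and 32.4 CPM, -3.14, adjusted p = 4.20e-05). Feedback genes thus did not share a direction: Dusp6, the ERK phosphatase, was at 442, 399 and 302 against 1179, 986 and 667 CPM (-1.31, lost without any 1 of Arid1a libraries 1 and 2 and Smarcb1 libraries 1 to 3). Etv1, Fosl1 and Ier3 were also lower. The count higher was 4 without Smarcb1 library 3; the count lower was 3 without Arid1a library 1 or 2 or Smarcb1 library 1, 2 without Smarcb1 library 3 and 1 without Smarcb1 library 2. With the stress level as a covariate 4 were higher and 2 lower.

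In the TGF-beta list 5 of 13 were higher and 2 lower (median 1.13). Its mean log2(CPM + 1) was 5.45 in the Smarcb1 libraries, 4.63 in the Arid1a libraries and 5.66 in Braf(V600E) alone. Summed CPM went the other way, at 799.5 to 1020 in the Smarcb1 and 2177 to 3439 in the Arid1a libraries. It was 1319 to 1897 CPM in Braf(V600E) alone. The ligands Tgfb2 (12.3, 7.84 and 19.1 against 1.24, 0.896 and 1.52 CPM, 3.42) and Tgfb3 (127, 140.3 and 85.9 against 15.99, 21.4 and 25.9 CPM, 2.48), the activin subunit Inhba (2.80), the co-receptor Tgfbr3 (2.16) and the inhibitor Smad7 (24.999, 20.4 and 14.8 against 3.14, 3.18 and 3.34 CPM, 2.64) were higher. Tgfbi, a secreted matrix protein named for its response to TGF-beta, had the lowest log2 fold change of the list, at 78.1, 102 and 165 against 1866, 3094 and 2802 CPM (-4.49, SE 0.48, adjusted p = 1.01e-06). Tgfbr1, the type I receptor, was the other member that was lower (-0.92, lost without Arid1a library 3 or Smarcb1 library 1 or 3).

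Genes of the Hippo, Wnt and Notch lists diverged member by member. Groups did not overlap for 6 of 9, 4 of 11 and 3 of 11 of them, against 40.5% of all genes tested. Ankrd1, a target of the Hippo effectors Yap and Taz, was at 453, 526 and 206 against 5.65, 1.63 and 6.55 CPM (6.42, SE 0.87, adjusted p = 1.34e-05). The targets Ctgf (-2.01, lost without Arid1a library 1 or 2 or Smarcb1 library 1 or 2) and F3 (-2.30, lost without Smarcb1 library 2) were lower, and Cyr61 did not pass (145 to 326 against 634 to 1151 CPM, -1.72, adjusted p = 0.0525). Of 9 list members 3 were higher and 2 lower. Without Arid1a library 1, 2 or 3 or Smarcb1 library 2 the count higher was 1, and without Arid1a library 1 or 2 or Smarcb1 library 1 the count lower was 1, with 0 without Smarcb1 library 2. Lef1, a nuclear partner of beta-catenin, was at 26.01, 47.7 and 18.6 against 0.222, 0.529 and 0.09096 CPM (6.80, SE 0.78, adjusted p = 2.29e-06). Rnf43, which removes Wnt receptors, was lower (-2.24), and the Wnt target Axin2 did not pass (0.79). In that list 2 of 11 were higher, or 1 without Arid1a library 2 or 3 or Smarcb1 library 2. Of 11 Notch genes 1 was higher (Nrarp, 2.13, lost without Smarcb1 library 3) and 1 lower (Hes1, -0.93, lost without Arid1a library 2 or 3 or Smarcb1 library 1). That is no more than the 13.5% higher and 13.6% lower among all genes.

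SWI/SNF subunits and Polycomb genes were counted too. Of 14 shared SWI/SNF subunits, the lost Smarcb1 included, 4 were higher and 2 lower (median 0.12), against 27.1% of all genes in either direction: Smarcd3, a subunit of heart and muscle complexes (0.8896, 3.92 and 5.61 against 0.444, 0.5701 and 0.424 CPM, 2.85), Smarcd1 (1.41), Bcl7c (1.32) and Actl6a (0.77) were higher, Smarcb1 and the ATPase Smarca2 (-0.62) lower. The ATPase Smarca4 did not pass (262, 208 and 107 against 90.6, 135 and 86.5 CPM, 0.89). The calls of Smarcd1, Bcl7c, Actl6a and Smarca2 were each lost without at least 3 of the 6 libraries taken singly, and the count higher was 2 without any Arid1a library or Smarcb1 library 1 or 2, and the count lower 1 without Arid1a library 2 or Smarcb1 library 1 or 2. Of 13 subunits that define 1 form of the complex, Dpf1, a subunit of neurons, was higher (1.66, 2.35 and 2.24 against 0.222, 0 and 0.243 CPM, 3.67) and Dpf2 was lower (-0.66, lost without Arid1a library 2 or 3 or Smarcb1 library 2 or 3). Arid1b, the paralogue of Arid1a, did not pass (0.53). Of 18 Polycomb genes 3 were lower, a share near the 13.6% of all genes: Pcgf2 (2.88, 2.48 and 3.41 against 8.34, 10.8 and 9.31 CPM, -1.69), Jarid2 (-1.48) and Ezh1 (-1.21). Ezh2, the main methyltransferase of dividing cells, did not pass (0.55).

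The contrast was measured again under CKI, in other libraries of the same genotypes, whose preparation texts are the same. There 4178 genes passed (22.0%), 2025 higher (10.6%) and 2153 lower (11.3%), with a median of 0.02 over all genes. Both treatments shared 2774 calls of the same sign, 53.8% of the vehicle calls and 66.4% of the CKI calls, of which 1302 were higher and 1472 lower; 8 calls had opposite signs. Of the vehicle calls 4881 (94.7%) had the same sign under CKI. All 12 named rises and all 12 named falls passed with the same sign under CKI, with groups that did not overlap, against 37.7% of all genes tested. Ecel1 was at 325, 207 and 1189.7 CPM against 0 under CKI, and Resp18 at 0.959, 8.51 and 0.267 against 117, 616 and 195 CPM. The 5 largest changes under CKI by the same rule added Cckbr, the gastrin receptor (20.9, 6.87 and 139.7 CPM against 0), Lingo2 (25.8, 7.53 and 47.97 against 0) and Csmd3 (45.8, 16.01 and 15.7 against 0) to the rises and the keratin Krt25 (0.0581, 0 and 0 against 13.5, 2.36 and 6.21 CPM) to the falls.

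The gene groups differed in how they looked under CKI. Neuronal genes were higher in 13 of 17 (median 4.52), Hox genes in 13 of 28 (2.07) and interferon genes in 17 of 24 (2.33). In all Arid1a CKI libraries 6 of the Hox and 3 of the neuronal genes were at 0 and could not be lower. Epithelial and junction genes were lower in 12 of 18 (-2.38), thyroid differentiation genes in 10 of 16 (-2.48) and accessory genes in 5 of 9 (-2.50). Tshr was at 8.92, 14.3 and 16.1 against 832, 393 and 429 CPM under CKI (-5.39), and Tg at 1884, 1901 and 1214 against 27539, 20959 and 30118 CPM (-3.98). For both genes every CKI library stood above the vehicle libraries of its own genotype.

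The other groups were read against 10.6% higher and 11.3% lower among all genes under CKI, and S phase and class II shares lay near these. Mitosis genes were higher in 1 of 20 (Ccna2; median 0.94; 3 with the stress level as a covariate) and S phase genes in 3 of 20 (median -0.03; Cdc45, E2f1 and Cdt1). Cdc20 was at 17.1, 20.3 and 30.4 against 7.61, 7.54 and 10.6 CPM under CKI (1.40, adjusted p = 0.0592). Class II genes were lower in 1 of 7 (H2-DMa; median -0.56; none without Arid1a CKI library 2 or Smarcb1 CKI library 4), with Cd74 at 490.3, 482 and 375 against 1025, 818 and 681 CPM. No member of the mitosis, S phase or class II lists passed the test of the difference between treatments, so their contrasts were not shown to differ between treatments. The summed leukocyte level under CKI was 82.1 to 135 against 29.9 to 211 CPM.

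**Figure D5:**
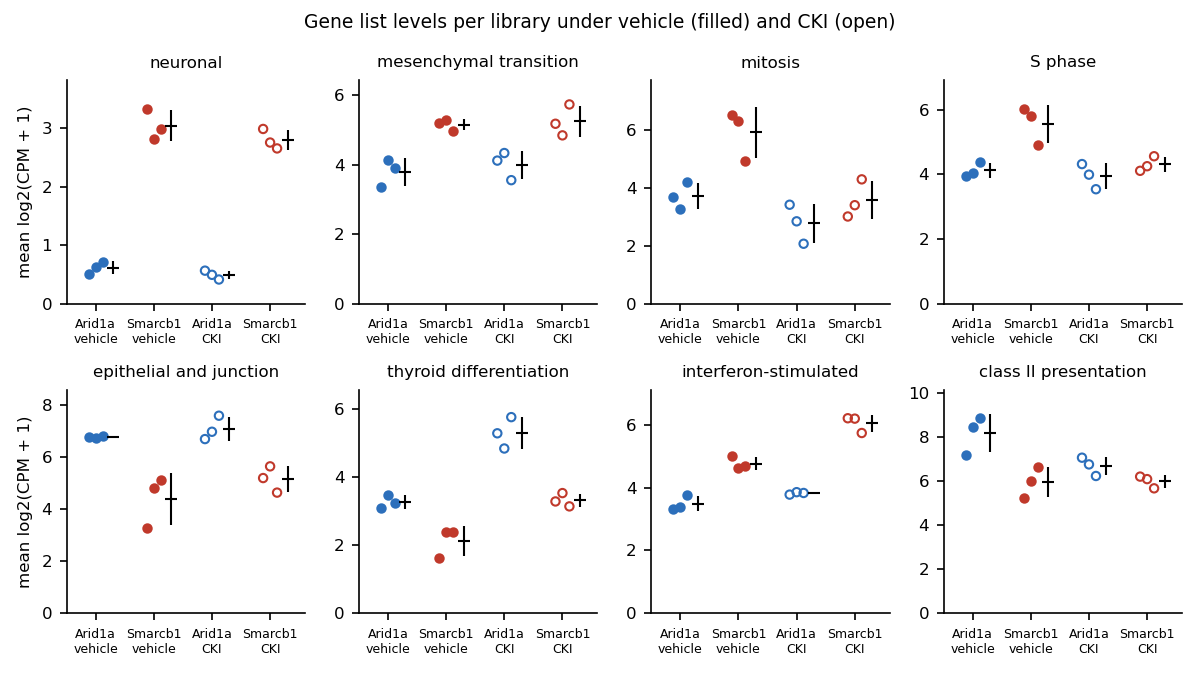
Mean log2(CPM + 1) of the tested members of 8 gene lists in each library, vehicle filled and CKI open, Arid1a knockout blue and Smarcb1 knockout red; crosses with bars are the mean ± SD of 3 libraries. Neuronal levels were 3.04 ± 0.264 with Smarcb1 loss and 0.614 ± 0.108 with Arid1a loss under vehicle and stayed apart under CKI, while the mitosis level of Smarcb1 library 3 lay nearest the Arid1a libraries.

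Tested directly, the contrast differed between vehicle and CKI for 42 genes (0.221% of those tested), 21 more positive (0.110%) and 21 more negative (0.110%) under vehicle. Of these, 27 were also vehicle calls. The count was 20, 27 and 19 without Arid1a vehicle library 1, 2 or 3, 23 without Arid1a CKI library 2, 19 without Smarcb1 CKI library 2, 26 without Smarcb1 vehicle library 2 and 91 without Smarcb1 vehicle library 3. The smallest p was that of Gstm1, a glutathione transferase, at 64.6, 86.1 and 126 against 535, 722 and 536 CPM under vehicle (-2.69) and at 280.2, 545 and 486 against 222, 269 and 326 CPM under CKI (0.68; difference -3.38, adjusted p = 4.70e-04). Il1rap, the co-receptor of interleukin 1, was at 254, 180.4 and 74.6 against 27.8, 29.03 and 32.3 CPM under vehicle (2.51) and at 55.8, 38.6 and 75.8 against 183, 113 and 113 CPM under CKI (-1.27; difference 3.78, adjusted p = 9.49e-04). Il1rap thus passed in opposite directions. Gmnn, geminin, the inhibitor of replication licensing, did the same (58.98, 38.6 and 30.2 against 21.5, 15.4 and 21.2 CPM under vehicle, 1.14, lost without Smarcb1 library 1; 17.1, 30.4 and 18.2 against 94.4, 81.8 and 52.01 CPM under CKI, -1.80).

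Acpp, an acid phosphatase, and Ccdc37, a gene of cilia, passed under CKI and not under vehicle, and the difference between treatments passed. Acpp was at 71.1, 76.3 and 138 against 88.5, 63.3 and 139 CPM under vehicle (-0.03) and at 17.5, 12.3 and 7.897 against 314, 224 and 569 CPM under CKI (-4.88; difference 4.85, adjusted p = 7.86e-04). Ccdc37 was at 7.41, 3.69 and 10.5 against 10.6, 4.68 and 6.31 CPM under vehicle and at 29.96, 25.9 and 32.1 against 0.507, 0.2502 and 1.09 CPM under CKI (5.57; difference -5.57, adjusted p = 0.00278). In the interferon list 2 of 24 passed this test, both with a wider gap under CKI. Ifit1 was at 512, 633 and 249 against 6.76, 8.83 and 5.62 CPM under CKI (6.04, against 3.11 under vehicle; difference adjusted p = 0.0486), and Irf7, a transcription factor of the interferon response, at 258, 415 and 152 against 14.2, 20.6 and 28.2 CPM (3.71, against 0.98 under vehicle; difference adjusted p = 0.0173). Of the list counts under vehicle given above, the higher counts of neuronal and mesenchymal genes, of interferon genes and the lower counts of epithelial and class II genes stayed within 1.5 times when any 1 of the 6 libraries was left out.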

How the data were processed

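The labels list 30 mouse samples, of which 28 libraries were analysed; the other 2, of 6 Braf Arid2 samples, match no column of the count table used here and are not analysed here. The authors deposited whole-number counts per gene. The submitters' processing notes name mm9 as build and DESeq2, HTSeq 0.6.1 and STAR 2.4 as tools, and whether counting used strand is not given in the sources used here. Total counts per library limit the precision, and counting intervals cover counting error only.

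Groups came from the labels. Counts were fitted with edgeR 4.0.16 (R 4.3.3, TMM scaling, filterByExpr, quasi-likelihood test) with all 28 libraries in 1 model, which shares 1 estimate of spread, and Benjamini-Hochberg adjustment over the 19016 genes tested. Contrasts were Smarcb1 minus Arid1a knockout under vehicle, the same under CKI, and their difference. The difference is tested between separate libraries. Pairs of libraries of a group differed beyond sampling noise and were kept as separate replicates. A list's level is its mean log2(CPM + 1). The leukocyte, stress or Y-linked level was added as a covariate in 1 alternative each, and RLE scaling, no filter, DESeq2 1.42.0, the compared groups only, the replicate number as a block and leaving out each library were the others. The test was tried on simulated counts.

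The members and the 49 gene lists were chosen with earlier results of these data known. Named genes are Smarcb1, Arid1a and Braf, the 12 largest rises and falls under vehicle and the 5 under CKI (adjusted p under 0.05, at least 5 CPM in the higher group, groups not overlapping), the 5 smallest p of the difference, and up to 4 called members of smallest p per list. Predicted genes, pseudogenes, and immunoglobulin and T cell receptor segments were left out. Other genes were named after their values were seen, and some that the rule names are not reported here.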

Additional observations from a re-analysis of the deposited data

Results flagged for a closer look

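7 named genes passed the test of the difference between the vehicle and the CKI contrast (edgeR's quasi-likelihood test with Benjamini-Hochberg adjustment over all genes), so that Smarcb1 against Arid1a loss gave unequal values under the 2 treatments. Gstm1 differed by -3.38 on the log2 scale, vehicle minus CKI, and Il1rap by 3.78. Gmnn differed by 2.94, with opposite signs under vehicle and CKI. Acpp differed by 4.85 and Ccdc37 by -5.57, both with no call under vehicle. Ifit1 differed by -2.92. Irf7 differed by -2.74; its vehicle call was lost without any 1 of the Arid1a libraries or Smarcb1 library 1, without a filter on low counts, with the replicate block, and with the leukocyte or Y-linked level as a covariate.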

How the results depend on the processing

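Under vehicle 5154 genes passed. The count was 5146 with RLE scaling, 4576 without a filter, 5991 with DESeq2, 3964 with the compared groups only, 4704 with the replicate block and 2478 with the compared groups only and the replicate block together. It was 3945, 5374 and 4911 with the leukocyte, stress and Y-linked level as a covariate, and 3907 to 5000 when 1 library was left out. Under CKI 4178 genes passed, 2981 with the compared groups only, 3383 with the replicate block and 1067 with both, and 3039 to 4286 when 1 library was left out. The difference between treatments gave 42 genes, 322 with DESeq2, 6 with the compared groups only, 17 with the replicate block, 1 with both and 19 with the leukocyte level, and 19 to 91 when 1 library was left out. The cause was not tested, except that the compared groups alone give fewer libraries for the spread. Same-numbered vehicle libraries had correlations of -0.087, 0.049 and -0.026 in their deviations from the group means. With 3 libraries a group, these values cannot decide whether replicate numbers pair the samples. Of 3966 values of single genes under alternatives, 3529 kept direction and side of the threshold, 384 fell below it, 53 newly passed and none reversed; of 1800 list counts 447 moved beyond 1.5 times.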

Other observations

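Matrix genes split between members. Of 16 collagen genes 3 were higher with Smarcb1 loss under vehicle and none lower (median 0.95), among 13.5% of all genes. Col5a2, a fibrillar collagen chain, was at 516, 574 and 252 CPM in the Smarcb1 libraries against 102, 80.6 and 81.7 CPM in the Arid1a libraries (log2 fold change 2.34, edgeR adjusted p = 0.00739), and in 3 of 3 libraries above every Arid1a library. Col8a1 (3.31) and Col3a1 (3.17) lost their calls without Smarcb1 library 2, Col3a1 also without some others, and the count was 1 without that library or 5 once the leukocyte level was a covariate. Summed collagen level was 1451 to 4896 against 784 to 1693 CPM, and 2335 to 23675 CPM in Braf(V600E) alone. Of 12 matrix metalloproteinases and inhibitors 2 were higher and 2 lower, or 1 lower without any 1 of the Arid1a libraries or Smarcb1 library 1 or 2. Timp1, an inhibitor of metalloproteinases, was at 2213, 1910.2 and 1415 against 54.6, 57.3 and 66.03 CPM (4.96, SE 0.65, adjusted p = 1.04e-05), with Braf(V600E) alone between at 491 to 746 CPM. The stromelysin gene Mmp10 was higher at 2.995, 0.915 and 0.76997 against 0, 0 and 0.152 CPM. Mmp11, another stromelysin, was lower (2.76, 6.47 and 5.65 against 34.2, 37.3 and 20.1 CPM, -2.62), and Timp3 (-1.29) lost its call without any 1 of the 6 libraries.

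Metabolic lists had medians near 0 with single genes far apart. Their counts stand against 13.5% higher and 13.6% lower among all genes, and the glycolysis and hypoxia counts lay near these shares. Of 20 glycolysis and hypoxia genes 4 were higher and 2 lower (median 0.00), with 1 higher without Arid1a library 1 or 2 or Smarcb1 library 1 and 2 higher without Arid1a library 3 or Smarcb1 library 2. Ndrg1, a hypoxia-responsive gene, was at 7.68, 40.4 and 49.7 against 249.7, 541 and 280.1 CPM (-3.45, SE 0.51, adjusted p = 3.10e-05). Hk2, hexokinase 2, was lower as well (4.54, 5.36 and 4.29 against 13.9, 16.9 and 20.7 CPM, -1.86), whereas the glycolytic kinase gene Pgk1 was higher (170.3, 95.7 and 71.8 against 49.1, 47.4 and 58.5 CPM, 1.12). Of 18 sterol and fatty acid genes 5 were higher and 3 lower (median 0.03), with 2 higher without any 1 of Arid1a libraries 1 and 2 and Smarcb1 libraries 1 and 2. Fasn, fatty acid synthase, was at 60.2, 57.1 and 44.1 against 128, 280.2 and 436 CPM (-2.39, adjusted p = 0.00142), and its regulator Srebf1 was lower by 1.73 on the log2 scale. The sterol gene Sqle was higher (191, 196 and 44.9 against 34.2, 22.4 and 47.3 CPM, 2.05), and Smarcb1 library 3 lay among the Arid1a libraries. No respiratory chain gene of 18 passed (median -0.20).

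In the unfolded protein response list 2 of 20 were higher and 1 lower, no more than the 13.5% higher and 13.6% lower among all genes. Chac1, a glutathione-degrading enzyme (26.9, 8.203 and 11.2 against 3.997, 2.402 and 3.52 CPM, 2.22), and Asns, asparagine synthetase (197, 107 and 104 against 22.1, 25.002 and 38.8 CPM, 2.25), were higher. The pseudokinase Trib3 was lower (12.5, 14.4 and 16.2 against 83.4, 124 and 99.5 CPM, -2.83). All 3 are known targets of Atf4, and they did not share a direction.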
